A study of Mus musculus with 6 samples.

Results

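The 10 genes described here are transcription factors and splicing regulators that hold or oppose the epithelial state: Ovol1, Ovol2, Grhl1, Grhl2, Grhl3, Esrp1, Esrp2 and Elf3 on the epithelial side, and Snai1 and Twist1 as drivers of epithelial-mesenchymal transition (EMT). They were chosen by name, with earlier results of these data known, as 10 of the 54146 genes counted. Each symbol matched a single Ensembl gene. Their RNA was measured in 4T1 cells, an established line of mammary carcinoma cells from the BALB/c mouse strain. The groups were KO clone 1 (Mki67-/-), KO clone 2 (Mki67-/-) and wild type (WT), with 2 libraries each. Mki67 encodes Ki-67, a nuclear protein used as a marker of proliferating cells. All cells were grown in the same serum-containing medium, and the labels name no drug or other treatment. Each knockout group is 1 clone, and the labels do not say how the knockout was made or whether the WT cells had been cloned, so Ki-67 loss cannot be told apart from differences between clones and the WT line. Whether a group's 2 libraries stem from separate cultures is not stated either, so the p-values rest on a spread between libraries that may be technical.

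Epithelial cells keep their junctions and polarity through transcription factors that act on the genes of those structures. Grainyhead-like (GRHL) factors activate junction genes such as E-cadherin and claudins, OVOL factors are zinc finger repressors that hold back EMT genes, and ELF3 is an ETS-family factor of epithelia. ESRP proteins direct the splicing of transcripts such as Cd44 and Fgfr2 into their epithelial forms. Snail (Snai1) and Twist1 bind E-box sequences, and Snail is known as a repressor of the E-cadherin gene Cdh1.

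The libraries held 22597596 and 22658499 gene reads in KO clone 1, 17103941 and 22275937 in KO clone 2, and 10428970 and 16852152 in WT, so WT was sequenced least deeply. Levels are given as CPM, the reads of a gene scaled to a common library size. A floor of 3 reads corresponded to 0.130 to 0.296 CPM. Mki67 itself had 85.8 and 102.5 CPM in KO clone 1 and 39.9 and 52.8 CPM in KO clone 2, against 736.4 and 647.4 CPM in WT. Its RNA was lower in both clones (log2 fold change -2.88 in KO clone 1 and -3.90 in KO clone 2, edgeR quasi-likelihood adjusted p = 1.13e-08 and 1.52e-09), and reads over the gene remained. Markers of mammary epithelium summed to 5362 to 5400 CPM in KO clone 1, 5328 to 5712 CPM in KO clone 2 and 3331 to 3774 CPM in WT, and 4 of the 7 tested markers were higher and 0 lower in the mean of both clones, where 26.5% of all genes tested were higher and 29.3% lower. In KO clone 2 alone 1 marker, Cdh1, was lower. Krt5, a basal marker, and Elf5, an alveolar one, had no read in any library, while the basal keratin Krt14 had 45.7 and 42.1 CPM in KO clone 1 and 67.8 and 66.5 CPM in KO clone 2, against 24.8 and 44.2 CPM in WT. Fibroblast markers summed to 20.1 to 20.3 CPM in KO clone 1, 15.9 to 17.1 CPM in KO clone 2 and 40.7 to 40.9 CPM in WT, mostly Pdgfra, while Col3a1 and Lum had no read. Postn, the other fibroblast marker tested, went the opposite way in KO clone 1, with 5.82 and 5.53 CPM there and 1.296 and 2.417 CPM in KO clone 2, against 1.18 and 1.48 CPM in WT. Immune markers summed to 12.3 to 12.9 CPM in KO clone 1, 25.04 to 28.97 CPM in KO clone 2 and 22.6 to 24.1 CPM in WT. The leukocyte gene Ptprc had no more than 0.118 CPM. The immune markers tested moved in different directions. Cd68 had 2.87 and 2.61 CPM in KO clone 1 and 3.47 and 2.16 CPM in KO clone 2, against 15.5 and 10.3 CPM in WT. Cd14 had 7.01 and 7.96 CPM in KO clone 1 and 22.4 and 19.5 CPM in KO clone 2, against 7.59 and 10.9 CPM in WT. Csf1r was higher in both clones (log2 fold change 0.92 and 1.41). Endothelial markers summed to at most 0.360 CPM. The part of these marker differences, and of the difference in depth, in the results below was not tested. In RNA from a whole culture, fewer cells of a type and less RNA per cell cannot be told apart.

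The promoters of 3 genes are shown because each was called in both clones and holds an E-box of the form that Snail binds, CAGGTG, which reads CACCTG on the other strand. The windows run from 250 bases before to 50 bases after the transcription start in RefSeq annotation of GRCm38.p6, 5′ to 3′ on the gene's own strand. Capitals mark matches to CAGGTG, to the E-box CATCTG or to AACCGG, the core of the GRHL site. The Grhl3 window is chr4:135573583-135573882 on the minus strand, the Elf3 window chr1:135258423-135258722 on the minus strand, and the Snai1 window chr2:167537945-167538244 on the plus strand.
Grhl3: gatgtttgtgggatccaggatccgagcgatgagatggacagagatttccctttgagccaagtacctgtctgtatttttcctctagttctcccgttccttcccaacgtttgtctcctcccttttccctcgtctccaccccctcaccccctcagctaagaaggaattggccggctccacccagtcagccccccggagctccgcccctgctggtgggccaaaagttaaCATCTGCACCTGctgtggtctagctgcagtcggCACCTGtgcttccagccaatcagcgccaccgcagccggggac
Elf3: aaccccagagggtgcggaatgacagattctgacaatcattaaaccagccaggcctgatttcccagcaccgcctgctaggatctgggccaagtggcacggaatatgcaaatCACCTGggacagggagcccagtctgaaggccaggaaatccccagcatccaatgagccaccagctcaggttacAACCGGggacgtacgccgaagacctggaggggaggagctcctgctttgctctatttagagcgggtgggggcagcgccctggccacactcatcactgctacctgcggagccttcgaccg
Snai1: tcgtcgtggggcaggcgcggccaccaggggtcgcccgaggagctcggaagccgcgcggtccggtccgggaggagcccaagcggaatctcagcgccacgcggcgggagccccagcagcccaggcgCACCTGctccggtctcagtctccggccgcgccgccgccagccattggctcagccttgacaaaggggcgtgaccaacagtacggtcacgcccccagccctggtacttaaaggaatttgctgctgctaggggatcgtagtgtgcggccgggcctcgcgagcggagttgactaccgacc

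In the Grhl3 window CATCTG lay at bases -25 to -20 and CACCTG directly after it at -19 to -14, counted from the transcription start, and a second CACCTG lay at 9 to 14. The Elf3 window held CACCTG at -140 to -135 and AACCGG at -68 to -63, and the Snai1 window held CACCTG at -126 to -121. On either strand, CAGGTG was found in 20.2% of the 32851 RefSeq windows of this length, CATCTG in 17.2% and AACCGG in 6.83%. At least 2 matches to CAGGTG, as in Grhl3, were found in 2.88% of windows, and at least 3 matches to either E-box in 1.22%. The OVOL core CCGTTA, the GRHL palindrome ACCGGT, which can overlap AACCGG, and the ETS form AGGAAG were also searched and were found in 2.76%, 2.33% and 35.4% of all windows. Windows were at hand for 6 of the 10 genes. Those of Ovol2 and Twist1 and the first of the 2 Grhl1 windows held none of the 6 motifs, and the second Grhl1 window held AGGAAG. The CpG dinucleotides numbered 12 in the Grhl3 and Elf3 windows, 34 in Snai1, 27 in Twist1, 25 in Ovol2, and 35 and 0 in the Grhl1 windows, against a median of 7 over all windows. These matches are descriptions of the sequence, and binding was not measured.

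The 10 regulators moved in both directions on each side of the epithelial and mesenchymal divide. In both clones Ovol1, Ovol2, Grhl2, Esrp2 and the EMT factor Snai1 were higher than in WT, and Grhl3, Elf3 and the EMT factor Twist1 were lower. In KO clone 1, 6 genes were higher, 3 lower and 1 was not called, where 50.4% of the 13755 genes tested were called (24.5% higher and 26.0% lower). In KO clone 2, 5 were higher, 3 lower and 2 not called, where 53.1% of all genes tested were called (25.2% higher and 27.9% lower). For the mean of both clones, 5 were higher, 3 lower and 2 not called, against a background of 55.8% (26.5% higher and 29.3% lower). Of the 10 genes 5 were higher and 3 lower in both clones, where 17.8% of all genes tested were higher in both, 19.8% lower in both, and 37.6% called in the same direction in both. The median log2 fold change of the 10 genes was 0.60 in KO clone 1 and 0.49 in KO clone 2, and that of all genes tested was -0.01 and -0.02. All 10 genes passed the filter on low counts, but Grhl3 passed only through its WT reads, so these counts include a gene that had to differ. The 2 knockout contrasts share the WT libraries and are not independent of each other. Because the 10 genes were chosen with earlier results of these data known, the shares over all genes beside them are not a test.

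**Figure D1:**
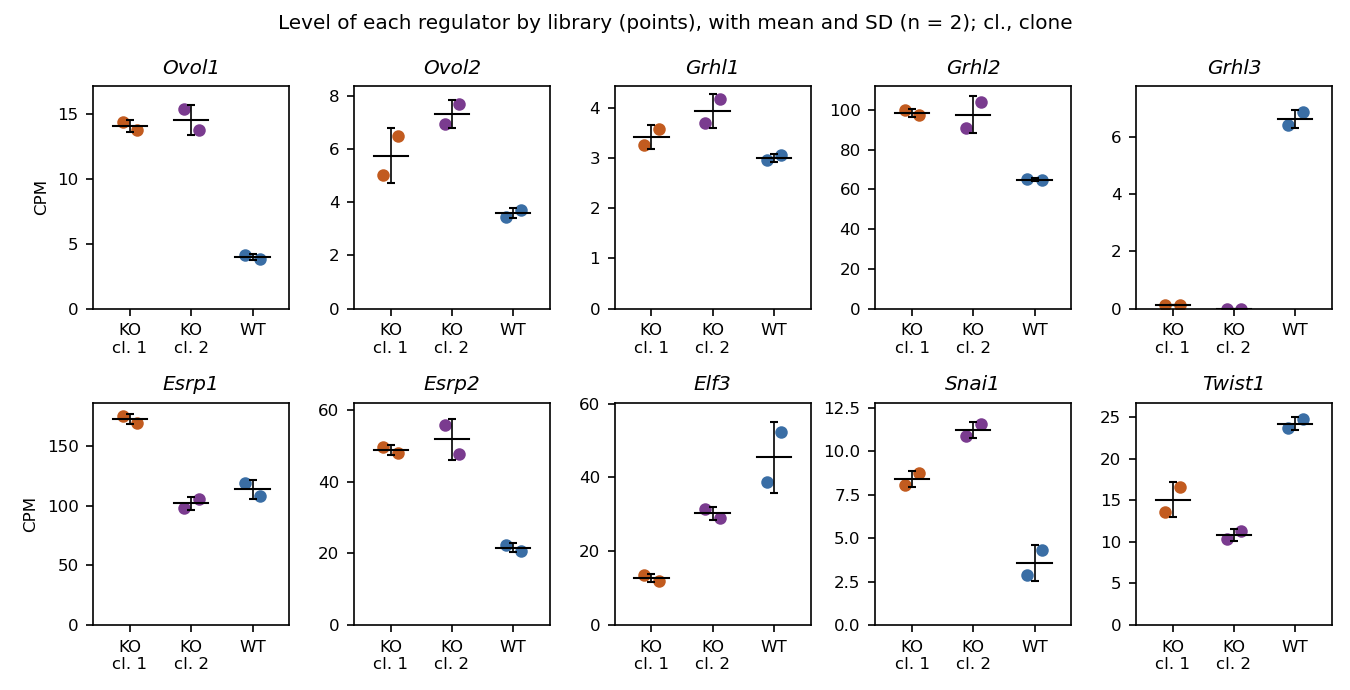
Level of each of the 10 regulators in CPM (y axis, linear from 0, own scale per gene) in KO clone 1, KO clone 2 and WT; points are the 2 libraries of a group, and the horizontal line and bars are their mean and SD (n = 2). For Ovol1, Ovol2, Grhl2, Esrp2 and Snai1 all 4 knockout libraries lie above both WT libraries. The same holds by a small margin for Grhl1, which was not called in either clone. For Grhl3, Elf3 and Twist1 all 4 lie below, and Esrp1 is high in KO clone 1 alone.

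Among the OVOL repressors, Ovol1 (ENSMUSG00000024922, chr19:5549136-5560646, minus strand, GRCm38) had 14.4 and 13.8 CPM in KO clone 1 and 15.4 and 13.7 CPM in KO clone 2, against 4.14 and 3.84 CPM in WT. The knockout libraries of both clones overlapped each other and lay well above WT. Its log2 fold change was 1.82 (SE 0.17, adjusted p = 1.41e-06) in KO clone 1 and 1.87 (SE 0.17, adjusted p = 1.01e-06) in KO clone 2. Ovol1 kept its direction and its call in each clone against WT under all 18 alternative settings, with log2 fold changes from 1.74 to 1.94.

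Ovol2 (ENSMUSG00000037279, chr2:144305175-144332146, minus strand), which in mouse and human cells represses Zeb1, had 5.02 and 6.47 CPM in KO clone 1 and 6.95 and 7.68 CPM in KO clone 2, against 3.45 and 3.72 CPM in WT. All 4 knockout libraries were above both WT libraries, and the gap was narrowest for KO clone 1 library 1. Its change was 0.67 (SE 0.21, adjusted p = 0.0149) in KO clone 1 and 1.02 (SE 0.20, adjusted p = 0.000900) in KO clone 2. The call in KO clone 1 was lost without KO clone 1 library 2 (0.49, adjusted p = 0.178). Ovol2 and Snai1 lie on chromosome 2, whose tested genes had a median log2 fold change of 0.26 in KO clone 1 and 0.29 in KO clone 2. With the chromosome medians taken out of the fit, Ovol2 changed by 0.43 (adjusted p = 0.106) in KO clone 1 and 0.74 (adjusted p = 0.00854) in KO clone 2.

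Per kilobase of exon, Ovol1 exceeded Ovol2 in every knockout library, with ratios of 1.73 and 1.29 in KO clone 1 and 1.34 and 1.08 in KO clone 2, against 0.727 and 0.625 in WT. The order of the pair was thus opposite in WT. The summed OVOL level was 6.50 and 7.01 CPM per kb in KO clone 1 and 7.70 and 7.57 CPM per kb in KO clone 2, against 2.82 and 2.86 CPM per kb in WT. These ratios and sums were chosen after the values were seen and carry no test.

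The GRHL family changed in its make-up more than in its total. Grhl2 (ENSMUSG00000022286, chr15:37233036-37363569, plus strand), an activator of Cdh1 and claudin genes in epithelia, had 99.9 and 97.2 CPM in KO clone 1 and 91.1 and 104.2 CPM in KO clone 2, against 65.3 and 64.5 CPM in WT. All 4 knockout libraries were higher than WT, and the clones overlapped. The log2 fold change was 0.60 (SE 0.12, adjusted p = 0.000705) in KO clone 1 and 0.59 (SE 0.12, adjusted p = 0.000751) in KO clone 2. These are 1.52-fold and 1.51-fold differences, and Grhl2 was not called when a change above 1.5-fold was required (adjusted p = 0.575 and 0.574).

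Grhl1 (ENSMUSG00000020656, chr12:24572283-24617391, plus strand), known from skin barrier and hair anchorage in mice, had 3.26 and 3.60 CPM in KO clone 1 and 3.71 and 4.19 CPM in KO clone 2, against 2.96 and 3.07 CPM in WT. The groups did not overlap, but the differences were small beside their error. The log2 fold change was 0.18 (95% interval -0.29 to 0.65, adjusted p = 0.509) in KO clone 1 and 0.39 (-0.08 to 0.86, adjusted p = 0.146) in KO clone 2, and both intervals reach past a 1.5-fold rise.

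Grhl3 (ENSMUSG00000037188, chr4:135541888-135573630, minus strand) acts in neural tube closure and epidermal repair in mice, and its E-box-bearing promoter is printed above. It had 0.132 and 0.135 CPM in KO clone 1 and 0 and 0 CPM in KO clone 2, against 6.41 and 6.85 CPM in WT. These levels rest on 3 and 3 reads in KO clone 1 and on 0 reads in KO clone 2, against 65 and 116 reads in WT. The gene was close to silent in both clones and plainly read in both WT libraries. KO clone 1 was 50.1-fold lower than WT (95% counting interval 22.6 to 138.2), and KO clone 2 at least 89.5-fold lower when its count is set to a floor of 3 reads over the group. Intervals and floors cover counting error only. With 6 and 0 reads, no fold between the clones is given.

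In CPM per kb, Grhl2 made up 94.8% and 94.2% of the GRHL sum in KO clone 1 and 94.0% and 94.1% in KO clone 2, against 72.8% and 71.3% in WT. Grhl3 made up 0.388% and 0.404% of it in KO clone 1 and 0% in both KO clone 2 libraries, against 22.1% and 23.4% in WT. The sum itself stood at 12.23 and 11.98 CPM per kb in KO clone 1 and 11.3 and 12.9 CPM per kb in KO clone 2, against 10.4 and 10.5 CPM per kb in WT. The level per kilobase lost with Grhl3 was thus outweighed by the difference in Grhl2 in these libraries, which is a description without a test.

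**Figure D2:**
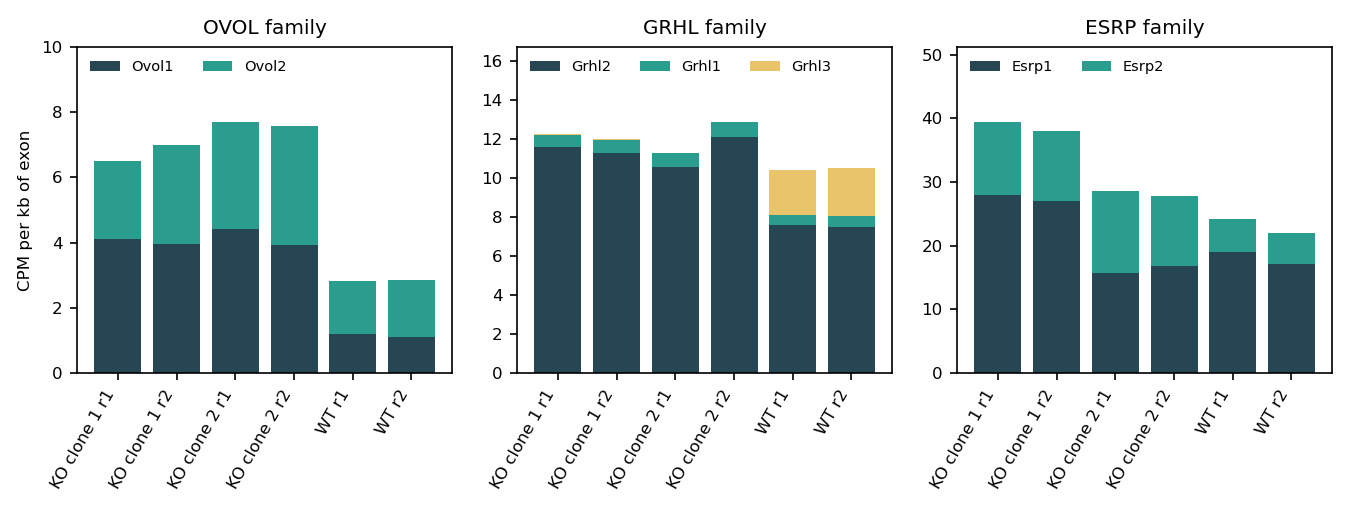
Stacked levels in CPM per kilobase of exon (y axis, linear from 0) of the OVOL, GRHL and ESRP families in each library (r1 and r2 are the libraries of a group). The Grhl3 segment is 22.1% and 23.4% of the GRHL bar in WT and at most 0.404% in the knockout libraries; the OVOL bars are higher in all 4 knockout libraries, and the ESRP bars are highest in KO clone 1.

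Of the ESRP splicing regulators, Esrp1 differed between the clones, and Esrp2 was higher in both. Esrp1 (ENSMUSG00000040728, chr4:11331933-11386783, minus strand) had 175.9 and 169.7 CPM in KO clone 1 and 98.5 and 106.1 CPM in KO clone 2, against 119.6 and 108.2 CPM in WT. KO clone 1 stood above all other libraries, and KO clone 2 lay just below WT. The log2 fold change was 0.60 (SE 0.11, adjusted p = 0.000590) in KO clone 1. In KO clone 2 it was -0.15 (95% interval -0.40 to 0.09, adjusted p = 0.264), an interval that leaves out a rise of the size seen in KO clone 1. Between KO clone 2 and KO clone 1 Esrp1 differed by -0.76 (SE 0.11, adjusted p = 0.000643). Genes of chromosome 4 had a median of 0.16 in KO clone 1 and -0.15 in KO clone 2, and with the chromosome shifts removed the Esrp1 difference between the clones was -0.48 (adjusted p = 0.0119). That is a smaller difference by more than 1.5 times.

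Esrp2 (ENSMUSG00000084128, chr8:106130319-106136974, minus strand) had 49.9 and 48.0 CPM in KO clone 1 and 56.0 and 47.8 CPM in KO clone 2, against 22.5 and 20.8 CPM in WT. All 4 knockout libraries were more than 2 times as high as either WT library. Esrp2 changed by 1.18 (SE 0.13, adjusted p = 6.45e-06) in KO clone 1 and 1.26 (SE 0.13, adjusted p = 3.16e-06) in KO clone 2. Chromosome 8 genes had medians of 0.28 and 0.39, and with these shifts removed the Esrp2 values were 0.88 (adjusted p = 9.93e-05) and 0.86 (adjusted p = 0.000103). The gene shares 219 exonic bases with Nfatc3 on the opposite strand. Reads of the opposite strand were 12.2% to 13.5% of the stranded reads at Esrp2 in the clones and 20.9% to 23.2% in WT.

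The ratio of Esrp1 to Esrp2 per kilobase was 2.43 and 2.43 in KO clone 1 and 1.21 and 1.53 in KO clone 2, against 3.66 and 3.58 in WT. Esrp1 remained the more abundant of the pair in all 6 libraries, with the narrowest margin in KO clone 2. The summed ESRP level was 39.4 and 38.0 CPM per kb in KO clone 1 and 28.5 and 27.9 CPM per kb in KO clone 2, against 24.2 and 22.0 CPM per kb in WT.

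Elf3 (ENSMUSG00000003051, chr1:135253575-135258568, minus strand), whose promoter window holds both a Snail-type E-box and a GRHL core, had 13.6 and 12.1 CPM in KO clone 1 and 31.4 and 29.1 CPM in KO clone 2, against 38.7 and 52.3 CPM in WT. The 3 groups did not overlap, and KO clone 1 was lowest. The log2 fold change was -1.83 (SE 0.16, adjusted p = 7.59e-07) in KO clone 1 and -0.59 (SE 0.15, adjusted p = 0.00462) in KO clone 2. Chromosome 1 genes had medians of -0.15 in KO clone 1 and -0.18 in KO clone 2. With these shifts removed the Elf3 values were -1.71 (adjusted p = 2.77e-06) and -0.425 (adjusted p = 0.0363). The WT libraries stood apart from each other, and the KO clone 2 value was -0.35 (adjusted p = 0.0510) without WT library 2, -0.78 (adjusted p = 0.000308) without WT library 1 and -0.55 (adjusted p = 0.0572) without KO clone 2 library 2. KO clone 2 was higher than KO clone 1 by 1.24 (SE 0.16, adjusted p = 0.000188), which was called under all 18 alternatives.

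Of the EMT factors, Snai1 rose and Twist1 fell. Snai1 (ENSMUSG00000042821, chr2:167538195-167542814, plus strand) had 8.07 and 8.72 CPM in KO clone 1 and 10.9 and 11.6 CPM in KO clone 2, against 2.86 and 4.31 CPM in WT. Every knockout library lay above both WT libraries, and KO clone 2 stood highest. Snai1 changed by 1.19 (SE 0.20, adjusted p = 0.000291) in KO clone 1 and 1.61 (SE 0.20, adjusted p = 1.91e-05) in KO clone 2. With the chromosome 2 shift removed it was 0.94 (adjusted p = 0.00201) in KO clone 1 and 1.33 (adjusted p = 0.000126) in KO clone 2. The clones differed by 0.42 (SE 0.18, adjusted p = 0.102), which was not called.

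Twist1 (ENSMUSG00000035799, chr12:33957671-33959829, plus strand), a basic helix-loop-helix factor of mesoderm and of EMT, had 13.6 and 16.5 CPM in KO clone 1 and 10.3 and 11.3 CPM in KO clone 2, against 23.7 and 24.7 CPM in WT. The groups did not overlap, with WT highest and KO clone 2 lowest. Its log2 fold change was -0.69 (SE 0.15, adjusted p = 0.00162) in KO clone 1 and -1.16 (SE 0.15, adjusted p = 2.54e-05) in KO clone 2. Chromosome 12 as a whole moved little, with medians of 0.01 and -0.04. The ratio of Snai1 to Twist1 per kilobase was 0.597 and 0.529 in KO clone 1 and 1.06 and 1.03 in KO clone 2, against 0.121 and 0.175 in WT.

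**Figure D3:**
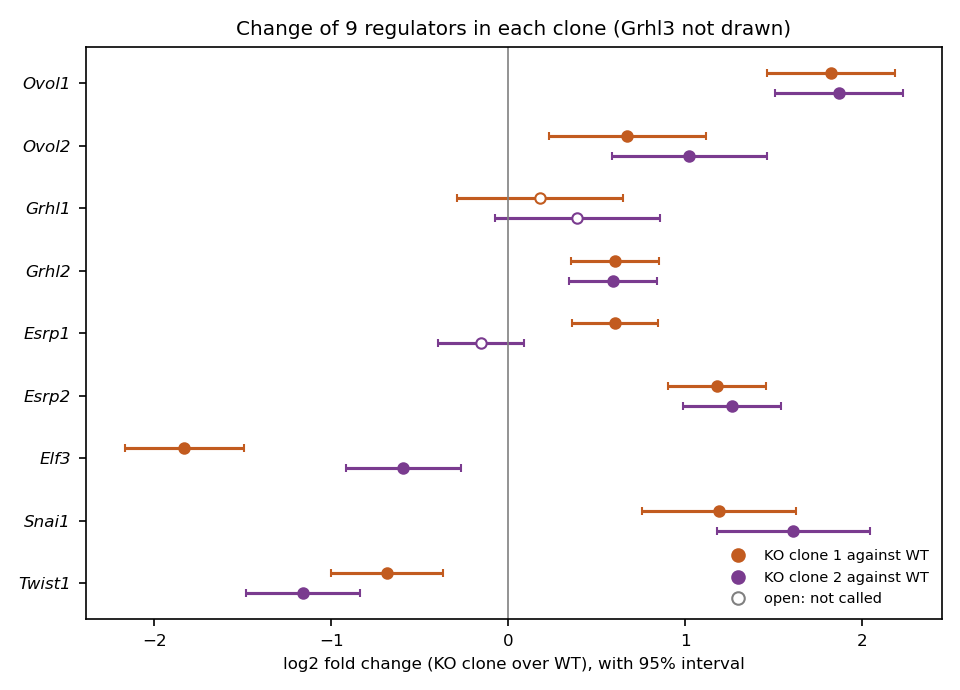
Fitted log2 fold change of 9 regulators (x axis; KO clone over WT) with 95% intervals, KO clone 1 in orange above KO clone 2 in purple; filled points are called at an adjusted p under 0.05. Grhl3 is not drawn because it has 0 reads in KO clone 2. The clones' intervals lie apart for Esrp1 and Elf3, while those of Ovol1 (1.82 and 1.87) and Grhl2 (0.60 and 0.59) nearly coincide.

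Between KO clone 2 and KO clone 1, 1 of the 10 genes was higher (Elf3), 3 were lower (Esrp1, Twist1 and Grhl3) and 6 were not called, where 22.0% of all genes tested were called (11.3% higher and 10.7% lower). The Twist1 difference was -0.48 (SE 0.15, adjusted p = 0.0360). It was no longer called when any 1 of the 4 knockout libraries was left out (adjusted p from 0.0612 to 0.377). The Grhl3 call (adjusted p = 0.0351) rests on 0 against 6 reads and was likewise lost without any 1 of these libraries (adjusted p from 0.0898 to 0.143). For Ovol1 the difference was 0.05 (95% interval -0.27 to 0.36), for Ovol2 0.35 (-0.05 to 0.75), for Grhl1 0.21 (-0.22 to 0.64), for Grhl2 -0.01 (-0.26 to 0.23) and for Esrp2 0.08 (-0.18 to 0.35).

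The order of levels within a library is given per kilobase of exon. In KO clone 1 it ran from Esrp1 (27.4 CPM per kb) through Grhl2 (11.4), Esrp2 (11.3), Twist1 (9.25), Elf3 (5.78), Snai1 (5.18), Ovol1 (4.03), Ovol2 (2.72) and Grhl1 (0.619) to Grhl3 (0.0479), and only Grhl2 and Esrp2 overlapped as neighbours. KO clone 2 had Esrp1 (16.2 CPM per kb) first, then Elf3 (13.6), Esrp2 (11.96), Grhl2 (11.3), Snai1 (6.93), Twist1 (6.64), Ovol1 (4.17), Ovol2 (3.46) and Grhl1 (0.713), with Grhl3 at 0. There Esrp2 overlapped with Grhl2, and Snai1 with Twist1. In WT the order was Elf3 (20.5 CPM per kb), Esrp1 (18.1), Twist1 (14.9), Grhl2 (7.53), Esrp2 (4.99), Grhl3 (2.38), Snai1 (2.21), Ovol2 (1.70), Ovol1 (1.14) and Grhl1 (0.544). In WT Elf3 and Esrp1 overlapped, as did Grhl3 and Snai1. Elf3 thus stood at the top of the WT order and below Twist1 in KO clone 1. Among the 11427 protein-coding genes tested, Elf3 lay at percentile 47.2 in KO clone 1 and 70.4 in KO clone 2, against 82.1 in WT. Ovol1 lay at percentile 38.2 and 39.2 in the clones, against 14.8 in WT, and Esrp1 stayed between 74.3 and 86.1 in the 3 groups.

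The genes with the most similar profiles were sought as the 2 protein-coding genes at the smallest Euclidean distance in log2 CPM, centred per gene, over the 6 libraries. Grhl2 had the closest neighbours, Zfp106 (0.059) and Zscan29 (0.063), and Grhl1 had Hspa5 (0.081) and Lsg1 (0.091). Ovol1 was closest to Atf3 (0.114) and 2410002F23Rik (0.137), and Ovol2 to Msra (0.142) and Isy1 (0.208). Esrp1 was closest to Ptbp3 (0.115) and Birc6 (0.125), and Esrp2 to Aldh18a1 (0.129) and Slc3a2 (0.162). The neighbours of Elf3 were Celsr1 (0.171) and Ydjc (0.249), those of Snai1 were Sh2d5 (0.138) and Ung (0.158), and those of Twist1 were Pts (0.137) and Tbc1d8b (0.160). Grhl3 had no close neighbour at this measure, with Trpm6 (0.769) and Pdgfc (0.803) nearest, both at no more than 0.225 CPM in the clones. With 6 libraries in 3 groups such distances mainly compare 3 group levels.

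Of 18 other regulators of the epithelial state, 11 were tested. For the mean of both clones 2 were higher and 3 lower, which is near the shares over all genes tested (26.5% higher and 29.3% lower), with a median of -0.02 where all genes had -0.02. Counted in each clone, 2 were higher in both and 2 lower in both, against 17.8% and 19.8% of all genes tested. In both clones Ubp1, a relative of the GRHL factors (0.70 for the mean of both clones), and Klf5, a Krüppel-like factor (0.66), were higher. Rbm47, an RNA-binding protein of epithelia (-0.47), was lower. The Rbm47 call in KO clone 2 (-0.36, adjusted p = 0.0448) was lost without WT library 2 and without any 1 knockout library (adjusted p from 0.0737 to 0.268), and its call for the mean without WT library 2 (-0.32, adjusted p = 0.0633). With chromosome medians taken out it was -0.21 in KO clone 2 (adjusted p = 0.218) and -0.30 for the mean (adjusted p = 0.0412).

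Of the other EMT transcription factors 11 of 16 were tested. In both clones 3 were higher and 1 lower, against 17.8% and 19.8% of all genes tested. For the mean of both clones 4 were higher and 3 lower, where 26.5% of all genes tested were higher and 29.3% lower, and the median was 0.15. Without KO clone 1 library 2 the count of lower genes was 1. Zeb2, a zinc finger repressor of Cdh1, had 12.9 and 14.1 CPM in KO clone 1 and 10.3 and 11.4 CPM in KO clone 2, against 24.8 and 21.6 CPM in WT (-0.93, adjusted p = 2.84e-05). Foxc2 had 16.4 and 15.1 CPM in KO clone 1 and 19.0 and 17.4 CPM in KO clone 2, against 4.24 and 6.55 CPM in WT (1.61, adjusted p = 4.08e-06). Thus Zeb2 was lower, as Twist1 was, and Foxc2 higher, as Snai1 was, in all 4 knockout libraries. Hmga2, an architectural chromatin protein, was also higher (1.38, adjusted p = 3.55e-07), as was Sox4 (0.70, adjusted p = 0.000315), whose call was lost with unstranded counts (0.51, adjusted p = 0.0997) and, in KO clone 2 alone (0.57), without KO clone 2 library 2 (0.46, adjusted p = 0.0623). Zeb1, the target of Ovol2 repression, had 1 read in KO clone 1 and 2 in KO clone 2, against 3 in WT, and Snai2 had 0 reads in both clones, against 2 in WT. Neither could be tested, and Twist2 had no read.

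Partners and regulators of Snail protein were counted as a list of 18, of which 16 were tested, 6 were higher and 4 lower for the mean of both clones, near the shares of 26.5% and 29.3% over all genes tested, with a median of 0.09. Of these 16, 4 were higher in both clones and 2 lower in both, against 17.8% and 19.8% of all genes tested. Higher in both clones were Ezh2, the catalytic subunit of Polycomb repressive complex 2 (0.82), Fbxl14, an F-box protein known to mark Snail for degradation (0.76), and the kinase Csnk1e (0.71). Loxl3, a lysyl oxidase that binds Snail, had 2.51 and 2.25 CPM in KO clone 1 and 3.12 and 2.81 CPM in KO clone 2, against 14.9 and 20.1 CPM in WT (-2.73, adjusted p = 1.39e-08).

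Genes of epithelial adhesion, junctions and trafficking include known GRHL and Snail targets. All 40 were tested, and for the mean of both clones 17 were higher and 9 lower, where 26.5% of all genes tested were higher and 29.3% lower, and the list's median was 0.14. Counted in each clone, 11 were higher in both and 8 lower in both, against 17.8% and 19.8% of all genes tested. Cdh1, named after its values were seen as the classic target of Snail, had 448.5 and 454.3 CPM in KO clone 1 and 285.0 and 324.6 CPM in KO clone 2, against 387.6 and 387.4 CPM in WT. It lay above WT in KO clone 1 (0.22, adjusted p = 0.115, not called) and below it in KO clone 2 (-0.35, adjusted p = 0.0180), and the clones differed (-0.57, adjusted p = 0.00379). The KO clone 2 call held under 13 of the 18 alternative settings. It was lost with no filter on low counts (-0.27, adjusted p = 0.0874) and with only the compared groups fitted (-0.33, adjusted p = 0.0607). It was also lost when a change above 1.5-fold was required, without KO clone 2 library 1 (-0.25) and without KO clone 1 library 2 (-0.34). With chromosome medians taken out Cdh1 was -0.75 in KO clone 2 (adjusted p = 0.000134) and -0.41 for the mean of both clones (adjusted p = 0.00303). Epcam, an adhesion molecule of epithelia, had 553.0 and 593.9 CPM in KO clone 1 and 304.3 and 327.3 CPM in KO clone 2, against 239.7 and 228.8 CPM in WT, and was higher in both (1.29 and 0.43, adjusted p = 8.00e-07 and 0.00473), although with chromosome medians taken out the values were 0.75 in KO clone 1 (adjusted p = 0.000156) and 0.26 in KO clone 2 (adjusted p = 0.0756, not called). Among the sharpest changes, Ap1m2, the epithelial clathrin adaptor subunit, had 47.9 and 48.4 CPM in KO clone 1 and 56.5 and 51.4 CPM in KO clone 2, against 0.395 and 0.0591 CPM in WT, which are 5 reads in all. Mal2, a protein of apical transport, had 1 read in each clone, against 1738 in WT. Bspry had 7 reads in KO clone 1 and 4 in KO clone 2, against 684 in WT, and the P-cadherin gene Cdh3 had 7 and 6, against 74 in WT. Mal2, Bspry and Cdh3 passed the filter on low counts only through WT, and Ap1m2 only through the clones, so these 4 genes of the list had to differ. The list was also chosen with earlier results of these data known.

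Of 27 mesenchymal genes 13 were tested, and for the mean of both clones 5 were higher and 5 lower, against 26.5% and 29.3% of all genes tested, with a median of 0.35. Of these 13, 3 were higher in both clones and 4 lower in both, against 17.8% and 19.8% of all genes tested. Vim, the intermediate filament of mesenchymal cells, had 285.0 and 297.7 CPM in KO clone 1 and 233.0 and 215.9 CPM in KO clone 2, against 851.5 and 1026 CPM in WT (-1.88, adjusted p = 5.50e-09). The matrix genes Sparc (-2.24) and Col6a1 (-2.46) fell too, and Tnc, encoding tenascin-C, rose (3.93, adjusted p = 1.01e-08). Fn1 had 1141 and 1003 CPM in KO clone 1 and 562.3 and 569.4 CPM in KO clone 2, against 357.1 and 461.5 CPM in WT. It was higher in both clones (0.93 for their mean, adjusted p = 2.18e-05). So was the matrix gene Col5a1 (0.94), with its KO clone 1 call near the threshold (0.57, adjusted p = 0.0475). S100a4 was lower in both (-0.46). Cdh2, encoding N-cadherin, had no read in any library.

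Genes whose splicing ESRP proteins control were counted at the level of the whole gene, which does not show their isoforms. Of 16, 15 were tested, 9 were higher and 0 lower for the mean of both clones, where 26.5% of all genes tested were higher and 29.3% lower. Called in both clones were 7 higher and 0 lower, where the shares over all genes tested were 17.8% and 19.8%. The list's median was 0.44, and that of all genes -0.02. Because this list was chosen with earlier results of these data known, the shares over all genes are not a test of it. Cd44, the hyaluronan receptor, had 411.5 and 452.2 CPM in KO clone 1 and 454.4 and 387.9 CPM in KO clone 2, against 163.5 and 137.6 CPM in WT (1.503, adjusted p = 2.08e-07). Itga6 (1.34) and Magi1 (1.31) were higher in both clones as well. In each clone alone 1 member of this list was lower, and without WT library 1 the count lower for the mean was 1.

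**Figure D4:**
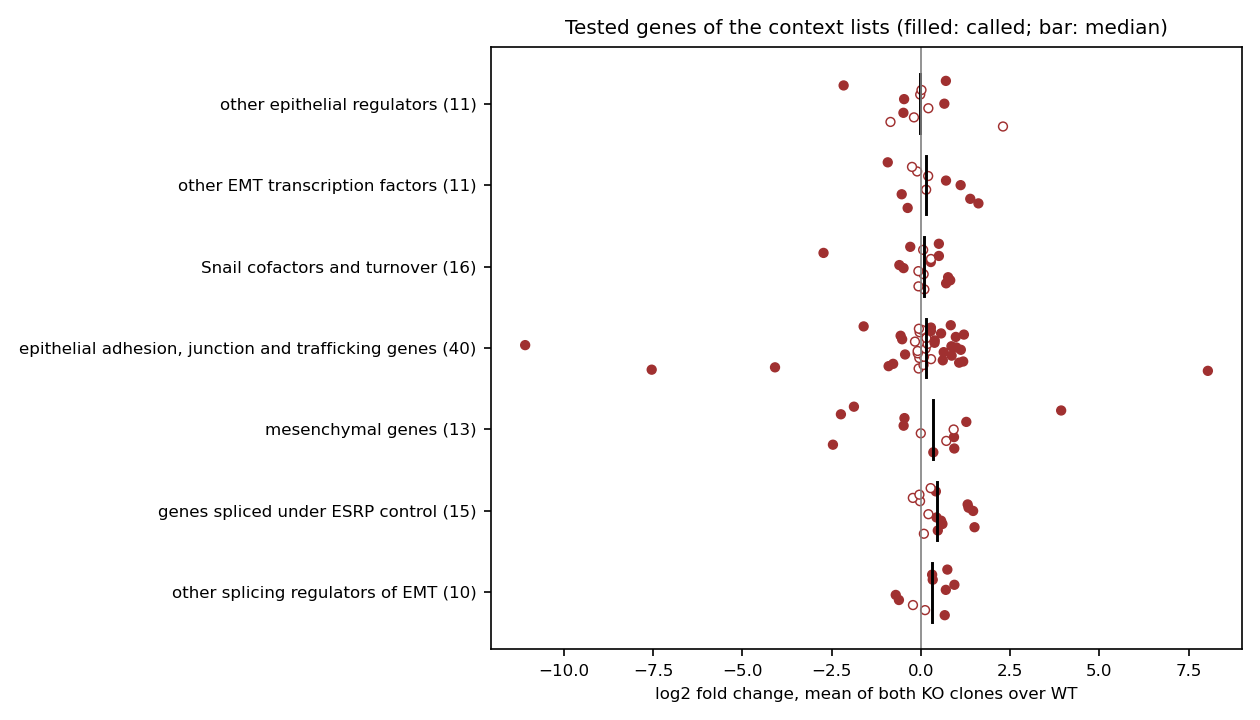
Log2 fold change of the mean of both KO clones over WT (x axis) for the tested genes of 7 lists (number tested in brackets); filled points are called, and the black bar is the list's median. The medians run from -0.02 to 0.44, and genes called higher and genes called lower are both present in 6 of the 7 lists. The point at the far left, Mal2, is a fitted value from 1 read in each clone, and the one at the far right, Ap1m2, rests on 5 WT reads.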

How the data were processed

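Total RNA of 6 libraries was sequenced after rRNA depletion with a stranded kit, per the labels' protocols. Per the submitters' processing notes, the tools were FastQC and STAR 2.6.0c with build GRCm38. The authors deposited raw counts of reads per Ensembl gene, unstranded and for each strand. The reverse-strand column, with 92.3% to 95.7% of stranded reads, was used here. Rows naming no gene were left out, and 43.2% to 53.1% of all reads were assigned to a gene. GENCODE mouse release 21 gave symbols to 54079 of 54146 IDs. In R 4.3.3 with edgeR 4.0.16, filterByExpr kept 13755 genes, libraries were scaled by TMM, and a robust quasi-likelihood model with 1 term per group was fitted over all 6 libraries (3 residual degrees of freedom). Calls needed a Benjamini-Hochberg adjusted p under 0.05 over all genes tested. CPM use the TMM-scaled sizes, and CPM per kb divide by the summed exon length of the gene. The fit was tested on simulated counts with the same spread for all genes and 197 changed genes, far fewer than were called here. Of 1.5-fold changes 43.94% were recovered in KO clone 1, 34.85% in KO clone 2 and 54.55% for their mean. At least 96.92% of 4-fold changes were recovered. In the same order, 7 of 151, 13 of 147 and 13 of 166 calls were false.

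Other settings tried were size factors and the Wald test of DESeq2 1.42.0, upper-quartile scaling, limma 3.58.1 voom, no filter or one at 1 CPM in 2 libraries, a required change of 1.5-fold, the unstranded column, fits of only the compared groups, a replicate block and the omission of each library. In the last, a lone library is taken to vary like the other groups. Removal of chromosome medians and edgeR's legacy fit were added after seeing the data. Replicates were not copies of each other (chi-square over degrees of freedom 17.7 in KO clone 1, 24.99 in KO clone 2 and 78.8 in WT). The 10 genes and the gene lists were chosen with earlier results of these data known. From each list at most 4 genes that moved the same way in each clone are named, by smallest adjusted p in the contrast of both clones' mean; 2 genes so named are not reported here. Cdh1, Epcam, Fn1, Col5a1, S100a4, Cd14, and genes named for having few or no reads were chosen after their values were seen.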

Additional observations from a re-analysis of the deposited data

Results flagged for a closer look

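The difference between KO clone 2 and KO clone 1 was itself called for 4 of the 10 genes, where 22.0% of all genes tested were called. For Esrp1 (adjusted p = 0.0006425, edgeR quasi-likelihood test over all genes tested) the clones differed by -0.76 on the log2 scale, with a mean of 102.3 ± 5.44 CPM in KO clone 2 and 172.8 ± 4.34 CPM in KO clone 1 (SD, n = 2 each). For Elf3 (adjusted p = 0.0001883) the difference was 1.24, with 30.2 ± 1.65 CPM in KO clone 2 and 12.8 ± 1.08 CPM in KO clone 1. For Twist1 (adjusted p = 0.03601) it was -0.48, with 10.8 ± 0.71 CPM in KO clone 2 and 15.1 ± 2.10 CPM in KO clone 1. For Grhl3 (adjusted p = 0.03509) it rests on 0 reads in KO clone 2 and 6 in KO clone 1. The Esrp1 and Elf3 calls held without any 1 library, whereas the Twist1 and Grhl3 calls were lost without any 1 knockout library, by the DESeq2 Wald test, with no filter on low counts and with chromosome medians taken out.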

How the results depend on the processing

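Against WT, the 10 genes kept their direction under each of the 18 alternative settings. Requiring a change above 1.5-fold left 2684 genes called in KO clone 1, 3032 in KO clone 2, 2870 for their mean and 344 between the clones, with 5, 6, 6 and 1 of the 10 genes among them. Lost by it were Ovol2, Grhl2, Esrp1 and Twist1 in KO clone 1, Grhl2 and Elf3 in KO clone 2, and Ovol2 and Grhl2 for the mean. Between the clones, 2 of the 10 remained called under the DESeq2 Wald test, with no filter on low counts, with chromosome medians taken out and without any 1 knockout library, against 4 in the fit as reported. Leaving out 1 library gave 4997 to 6978 calls over all genes in KO clone 1, 5632 to 7087 in KO clone 2, 6762 to 7294 for their mean and 625 to 4445 between the clones, with 8 to 9, 7 to 8, 8 to 9 and 2 to 5 of the 10 genes. Ovol2 in KO clone 1 was also not called by the DESeq2 Wald test (adjusted p = 0.0581). Esrp1 was called for the mean of both clones with no filter (0.30, adjusted p = 0.0307) and without WT library 1 (0.31, adjusted p = 0.0299), against 0.22 (adjusted p = 0.0668) as reported. Snai1 was called between the clones with only these groups fitted (0.42, adjusted p = 0.0333) and without either WT library (adjusted p = 0.0342 and 0.0331). Small uncalled differences between the clones changed sign: leaving out 1 library gave -0.0266 to 0.1172 for Ovol1, -0.1241 to 0.0895 for Grhl2 and -0.0259 to 0.1838 for Esrp2, and Grhl2 was 0.0004 by the DESeq2 Wald test and 0.0019 with unstranded counts. With chromosome medians taken out, Esrp2 was -0.0209 between the clones and Cdh1 -0.0773 in KO clone 1, and with no filter Cdh1 was 0.0136 for the mean, none of them called. The cause was not tested. With the replicate number as a block, 6566 genes were called in KO clone 1, 7028 in KO clone 2, 7389 for their mean and 2566 between the clones, and no call of the 10 genes changed. Deviations of same-numbered libraries were correlated weakly and with mixed sign. The r was -0.16 for KO clone 1 and WT, 0.08 for KO clone 2 and WT, and 0.005 between the clones. Whether same-numbered libraries were prepared as pairs is not stated. The few Grhl3 reads in the clones, which were sequenced more deeply than WT, limit how closely its fold can be stated. Zeb1 and Snai2 had too few reads to be tested.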

Other observations

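Other regulators of splicing in EMT, counted as a list of 10 that were all tested, included 6 higher and 2 lower for the mean of both clones, where 26.5% of all genes tested were higher and 29.3% lower. Counted in each clone, 5 were higher in both and 2 lower in both, against 17.8% and 19.8% of all genes tested. The list's median log2 fold change was 0.32, and that of all genes -0.02. As with the other lists, it was chosen with earlier results of these data known. Qk, encoding the RNA-binding protein Quaking, had 277.8 and 281.4 CPM in KO clone 1 and 166.8 and 163.5 CPM in KO clone 2, against 128.5 and 96.0 CPM in WT. It was higher in both clones (1.32 in KO clone 1 and 0.56 in KO clone 2, adjusted p = 3.77e-06 and 0.00314; 0.37 in KO clone 2 without WT library 2, adjusted p = 0.0169) and, like Esrp1, lower in KO clone 2 than in KO clone 1 (-0.76, adjusted p = 0.00196). Srsf1, a serine- and arginine-rich splicing factor, had 467.1 and 515.8 CPM in KO clone 1 and 423.5 and 480.7 CPM in KO clone 2, against 276.1 and 287.6 CPM in WT (0.74 for the mean of both clones, adjusted p = 4.11e-05). Celf1 was higher in both clones (0.67) and Mbnl2, a muscleblind-like splicing factor, lower in both (-0.70). With chromosome medians taken out, Qk was 0.77 in KO clone 1 (adjusted p = 0.000751) and 0.58 for the mean (adjusted p = 0.00203), and Celf1 was 0.41 for the mean (adjusted p = 0.00289).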
